A study of Mus musculus with 8 samples.

Results

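The CC chemokine ligands described here were 9 genes found by symbol in the deposited expression table: Ccl2, Ccl3, Ccl4, Ccl5, Ccl6, Ccl7, Ccl9, Ccl12 and Ccl22. All 9 had a single row among the 55801 genes of the table, and all 9 had a mean level high enough to be tested. CC chemokines are small secreted proteins, named for a pair of adjacent cysteines, that bind G protein-coupled receptors and guide the migration of leukocytes along a concentration gradient. Macrophages that sense bacterial LPS through TLR4 switch on several of these genes through NFκB and interferon signaling, and the released proteins draw monocytes, T cells and other leukocytes to the site. Some family members, such as Ccl6 and Ccl9, are made by macrophages and other myeloid cells without such a stimulus.

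The RNA came from primary peritoneal macrophages of male C57BL/6 mice aged 6 to 8 weeks, drawn into the abdominal cavity with thioglycollate broth, and it was sequenced in 4 groups of 2 samples. NC cells received the vehicle DMSO alone. LPS cells received the vehicle for 0.5 h and then LPS at 100 ng/ml for 4 h. C498 cells received the small molecule C498, known by its code name, at 15 µM without LPS, and C498+LPS cells received 15 µM C498 for 0.5 h before LPS at 100 ng/ml for 4 h. The sources name no altered gene in any group. The sources do not say whether the 2 samples of a group came from separate mice or cultures, so the p-values measure only the spread between these samples.

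Levels are in TPM, a unit that divides reads by gene length and scales each sample to the same total, so that levels of different genes can be set beside each other. The depth behind a TPM value is unknown. Differences were tested with limma on log2(TPM + 1) over the 12189 genes with a mean of at least 1 TPM, and this scale understates the changes of the lowest genes. To be called upregulated or downregulated, a gene had to differ at least 2-fold with a p, adjusted by Benjamini and Hochberg's method over all tested genes, of at most 0.05. With 2 samples against 2, an exact two-sided permutation test of a single gene cannot give a p below 0.333. Over all tested genes the log2 changes had a median of -0.17 for LPS vs NC, -0.18 for C498+LPS vs C498 and 0.01 for both comparisons of C498 with no C498. Some comparisons share samples, since the NC samples serve both LPS and C498 and the LPS samples serve both NC and C498+LPS.

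All 10 macrophage markers looked at were expressed, with Lyz2 at a mean of 12311 TPM. Their summed level ran from 26968 to 28354 TPM in NC, 23304 to 24577 TPM in LPS, 22945 to 23024 TPM in C498 and 17862 to 19573 TPM in C498+LPS. Markers of other cells were also present. Of 7 fibroblast markers 6 had a mean of at least 1 TPM, and their sum moved with the compound, from 151 to 193 TPM in NC and 184 to 210.1 TPM in LPS to 634 to 751 TPM in C498 and 620.0 to 912 TPM in C498+LPS. Pdgfrb, one of the 6, did not follow the sum, at 0.58 and 0.47 TPM in NC, 9.63 and 8.03 TPM in LPS, 1.18 and 1.24 TPM in C498, and 1.97 and 1.62 TPM in C498+LPS. The 6 mesothelial markers summed to at most 6.51 TPM without C498 and to 17.4 to 29.4 TPM with it, and the 6 B cell markers, led by Ighm, to at most 25.1 TPM without C498 and 41.7 to 120.2 TPM with it. The 10 neutrophil markers, with Elane and Ngp at 0 in all samples, summed to 82.4 to 134.8 TPM without C498 and to 52.6 to 81.6 TPM with it. Most of this sum was S100a8, at 75.9 and 128 TPM in NC and 89.9 and 116 TPM in LPS. S100a8 was at 53.3 and 48.9 TPM in C498 and 79.5 and 71.0 TPM in C498+LPS. Only 3 of the 10 had a mean of at least 1 TPM, and S100a9 was at no more than 0.86 TPM in any sample. The 7 mast cell markers summed to at most 23.2 TPM and the 6 eosinophil markers, with Epx at 0, to at most 2.53 TPM. The part of these cells in the chemokine levels was not tested.

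Of the 9 genes, 8 lie on chromosome 11 of GRCm38, by the GENCODE M21 annotation, in a pair of groups of neighbours. Ccl2, Ccl7 and Ccl12 span 67.8 kb from 82035571 to 82103400, and Ccl5, Ccl9, Ccl6, Ccl3 and Ccl4 span 138.9 kb from 83525778 to 83664683. Ccl22 is the only one of the 9 on chromosome 8, from 94745590 to 94751699. All are annotated as protein-coding.

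RefSeq promoter sequences on GRCm38.p6 were at hand for Ccl3, Ccl6, Ccl9, Ccl12 and Ccl22. Promoters of Ccl2, Ccl4, Ccl5 and Ccl7 were not used here. The 150 bases before the start of transcription are printed for 4 genes of chromosome 11 whose levels differed in pattern: Ccl3, upregulated both in C498 and in LPS, the neighbours Ccl6 and Ccl9, with mean levels in LPS below and above those in NC, and Ccl12, lowest in C498+LPS. Capitals mark the motifs found in them.

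Ccl3, chr11:83649379-83649528, minus strand: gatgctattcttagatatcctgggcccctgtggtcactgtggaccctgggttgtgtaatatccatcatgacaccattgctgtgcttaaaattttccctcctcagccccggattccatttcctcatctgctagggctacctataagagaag

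Ccl6, chr11:83593088-83593237, minus strand: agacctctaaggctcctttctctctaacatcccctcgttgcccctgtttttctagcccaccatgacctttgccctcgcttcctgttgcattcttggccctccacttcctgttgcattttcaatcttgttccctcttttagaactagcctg

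Ccl9, chr11:83578637-83578786, minus strand: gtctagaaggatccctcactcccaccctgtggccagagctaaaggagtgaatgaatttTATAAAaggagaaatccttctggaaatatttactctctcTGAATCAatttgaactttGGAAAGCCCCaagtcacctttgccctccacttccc

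Ccl12, chr11:82101695-82101844, plus strand: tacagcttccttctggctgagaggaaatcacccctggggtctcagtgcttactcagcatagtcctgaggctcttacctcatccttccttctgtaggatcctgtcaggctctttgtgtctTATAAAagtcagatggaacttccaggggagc

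The motifs searched over 250 bases before the start were the κB consensus bound by NFκB, the AP-1 motif TGANTCA and the interferon-response motif (GAAA, NN and GAAA in a row), each on both strands, and the TATA box TATAAA on the given strand. Of the 32851 RefSeq promoters of this length, 3.9% held the κB consensus, 6.75% the AP-1 motif, 2.98% the interferon-response motif and 7.59% the TATA box. Among the 5 chemokine promoters, Ccl9 held a κB match from 35 to 26 bases before the start, an AP-1 match from 53 to 47 bases and a TATA box from 92 to 87 bases, with no overlap between them. Ccl12 held a TATA box from 31 to 26 bases before the start. In Ccl3, Ccl6 and Ccl22 none of these letters occurred in the window, though that of Ccl22 was not wholly upstream of the gene, since its last 150 bases overlapped 2 exons annotated by GENCODE.

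The 9 ligands together summed to 3356 and 3846 TPM in the NC samples and to 19587 and 19533 TPM in the LPS samples, so their share of all transcripts went from 0.336% and 0.385% to 1.96% and 1.95%. In C498 the sum was 5398 and 5232 TPM, and in C498+LPS it was 17939 and 16930.2 TPM, or 1.79% and 1.69% of all transcripts. Both C498 samples lay above both NC samples, and both C498+LPS samples lay below both LPS samples.

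**Figure D1:**
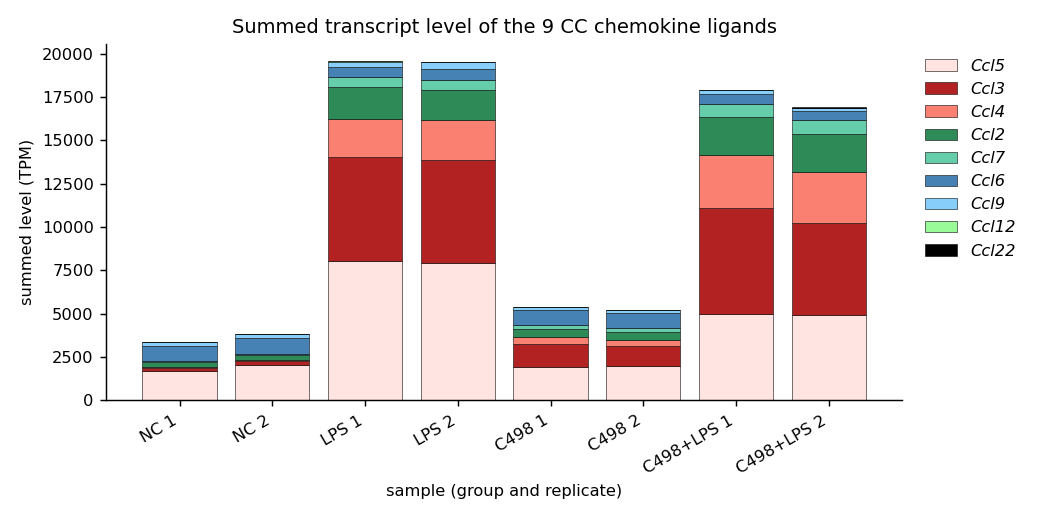
Summed level in TPM of the 9 CC chemokine ligands in each of the 8 samples, stacked by gene. Ccl5 and Ccl3 make up most of the height in the LPS and C498+LPS samples, and the Ccl5 layer is thinner in C498+LPS than in LPS.

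The make-up of this sum also differed between the groups. Ccl5 made up 52.1% of the summed group means in NC, 40.9% in LPS, 36.7% in C498 and 28.3% in C498+LPS. Ccl3 went the other way, from 5.57% in NC to 30.4% in LPS, 23.3% in C498 and 32.8% in C498+LPS. The pair Ccl6 and Ccl9 made up 30.9% in NC, 19.3% in C498, 4.91% in LPS and 4.24% in C498+LPS. In NC, Ccl5 was the most abundant of the 9 genes and ranked 65 among all genes of the table, with Ccl6 at rank 179. In LPS, Ccl5 ranked 7 and Ccl3 ranked 12 among all genes, and in C498+LPS Ccl3 stayed at rank 12 while Ccl5 stood at rank 21.

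LPS alone raised most of the 9 ligands, which were chosen with earlier results of these data known. In LPS vs NC, 7 of the 9 ligands were called upregulated (Ccl2, Ccl3, Ccl4, Ccl5, Ccl7, Ccl12 and Ccl22), where 5.55% of all tested genes were. None was called downregulated by limma, where 6.68% of all tested genes were, and 1 of the 9 was lower at an unadjusted p under 0.05. After C498, LPS raised 6 of the 9 (C498+LPS vs C498, background 2.52%), all but Ccl6, Ccl9 and Ccl12, and again none was called downregulated by limma (background 3.13%), with 1 lower at an unadjusted p under 0.05. With samples centred on their median gene, the numbers of all tested genes called up and down went from 677 and 814 to 853 and 530 for LPS vs NC, and from 307 and 381 to 434 and 196 for C498+LPS vs C498, while the counts of ligands called upregulated stayed at 7 and 6. At an adjusted p of at most 0.05 with no fold change threshold, 8 ligands were higher in LPS than in NC (background 9.84%) and 1 lower (19.8%), and after C498 LPS gave 6 higher (4.51%) and 1 lower (11.7%). The samples of the groups did not overlap for 8 ligands higher (19.3%) and 1 lower (42.2%) in LPS than in NC, and for 6 higher (17.4%) and 2 lower (48.8%) in C498+LPS than in C498.

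C498 alone raised 4 of the 9 ligands (C498 vs NC), namely Ccl3, Ccl4, Ccl7 and Ccl22, where 5.64% of all tested genes were called upregulated. None was called downregulated by limma (background 1.36%), and none was lower at an unadjusted p under 0.05. In C498+LPS vs LPS, which asks what C498 did to the levels reached under LPS, 1 ligand was called upregulated (Ccl22, background 5.39%) and 1 downregulated (Ccl12, background 2.18%). Without the fold change threshold, 4 were higher (background 9.08%) and 3 lower (background 7.7%) at an adjusted p of at most 0.05, and 5 were higher in C498 than in NC (background 9.29%). The samples did not overlap for 4 ligands higher (31.9%) and 3 lower (30.9%) in C498+LPS than in LPS, and for 5 higher (29.3%) and 1 lower (28.4%) in C498 than in NC, and the counts for C498+LPS against LPS were near these backgrounds. The median log2 change of the 9 ligands in this comparison was -0.06, beside 0.01 over all tested genes.

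**Figure D2:**
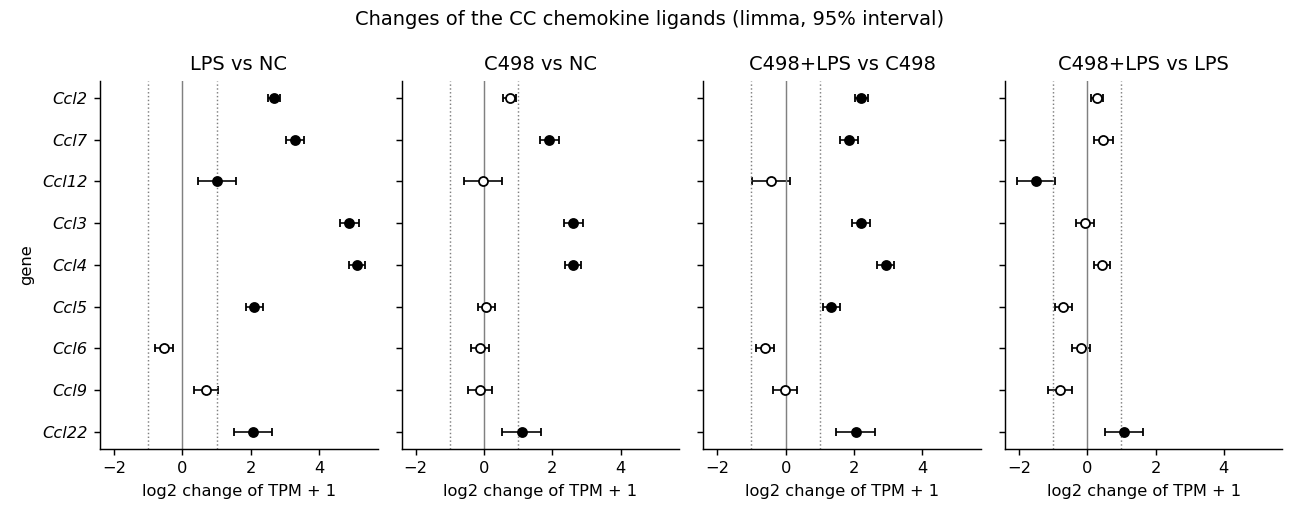
Log2 change of TPM + 1 (x axis) of each ligand in 4 comparisons, from limma with 95% intervals, filled where the gene was called and open where it was not. Dotted lines mark a 2-fold change. Ccl3, Ccl4 and Ccl7 lie beyond the upper line in the 3 left panels and within the lines in the right one.

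Ccl2, Ccl7 and Ccl12 act on CCR2, the receptor that brings monocytes out of the blood. Ccl2, the main monocyte attractant, was at 278 and 283 TPM in NC, 1883 and 1727 TPM in LPS, 472 and 470.4 TPM in C498, and 2223 and 2176 TPM in C498+LPS. The 4 groups did not overlap, and C498+LPS was the highest. In limma its log2 change was 2.68 for LPS vs NC (standard error 0.0764, adjusted p = 2.02e-06), and 2.22 for C498+LPS vs C498 (adjusted p = 9.79e-06).

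C498 alone took Ccl2 to 1.68 times the NC mean (log2 change 0.75, limma adjusted p = 0.00143), which is short of the 2-fold threshold. Under LPS it was 1.22 times as high with C498 as without (log2 change 0.29, limma adjusted p = 0.0433). That difference did not hold its side of the p threshold, with an adjusted p between 0.0344 and 0.332 over the alternatives, and its log2 change went from 0.13 to 0.35.

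Ccl7 was at 51.8 and 61.8 TPM in NC, 562 and 563 TPM in LPS, 220.5 and 212 TPM in C498, and 723 and 845 TPM in C498+LPS. Its groups stood in the order of those of Ccl2, with no overlap. LPS raised it 9.91-fold in mean level (log2 change 3.29, limma adjusted p = 4.97e-06) and C498 alone raised it 3.81-fold (log2 change 1.92, standard error 0.114, adjusted p = 0.000171). C498+LPS vs LPS gave a log2 change of 0.47 (limma adjusted p = 0.0312, from 0.0183 to 0.199 over the alternatives).

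Without LPS, the 2 genes differed in how far C498 moved them. The level of Ccl2 was 4.94 times that of Ccl7 in NC, 3.21 times in LPS, 2.18 times in C498 and 2.81 times in C498+LPS, from the group means in TPM. In single samples the ratio was 5.36 and 4.59 in NC and 2.14 and 2.22 in C498. With LPS the samples overlapped, at 3.348 and 3.065 in LPS and 3.077 and 2.576 in C498+LPS. Fibroblasts are another known source of both chemokines, and the sum of the fibroblast markers was higher in every C498 and C498+LPS sample than in every sample without C498. The part of fibroblasts in the rise of Ccl7, or in the level of Ccl2, was not tested, and in such bulk samples more cells of a type and more RNA per cell cannot be told apart. In LPS vs NC the fibroblast sums were 184 to 210.1 TPM against 151 to 193 TPM.

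Ccl12, a further monocyte attractant encoded beside them, was expressed at a far lower level. It was at 4.68 and 7.48 TPM in NC, 14.4 and 11.8 TPM in LPS, 6.19 and 5.35 TPM in C498, and 3.59 and 4.48 TPM in C498+LPS. The LPS samples were the highest and the C498+LPS samples the lowest, while NC and C498 overlapped. The level of Ccl2 was 46.2 times that of Ccl12 in NC and 545 times in C498+LPS.

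Ccl12 rose in LPS vs NC by 1.02 on the log2 scale (standard error 0.237, limma adjusted p = 0.0174). This call lay at the threshold: the log2 change was 0.73 without NC replicate 1, 0.89 without LPS replicate 1 and 1.15 without LPS replicate 2, and in each of these fits the gene was no longer called (adjusted p 0.0476, 0.118 and 0.0625). The call was also lost when low genes were kept (adjusted p = 0.0508) and in a fit of only the groups compared (adjusted p = 0.0886), and the adjusted p over all alternatives began at 0.00992.

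In C498+LPS vs LPS Ccl12 fell by 1.49 on the log2 scale (limma adjusted p = 0.00719), to 0.307 of the LPS mean. It was the only one of the 9 ligands called downregulated there, and the call was lost without LPS replicate 1 (log2 change -1.36, adjusted p = 0.0714, from 0.00513 over the alternatives). After C498, LPS gave a log2 change of -0.43 with a 95% interval from -0.99 to 0.13 (limma adjusted p = 0.26). C498 alone gave -0.04, with an interval from -0.60 to 0.52.

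Ccl3, Ccl4 and Ccl5 attract monocytes, T cells and NK cells. Ccl3 was at 212 and 190 TPM in NC, 5953 and 5940.2 TPM in LPS, 1339 and 1135 TPM in C498, and 6133 and 5291 TPM in C498+LPS. It was low in NC alone, intermediate in C498, and the LPS and C498+LPS samples overlapped.

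The log2 change of Ccl3 in LPS vs NC was 4.88 (standard error 0.116, limma adjusted p = 1.04e-06). C498 alone raised it 6.17-fold in mean level (log2 change 2.62, limma adjusted p = 3.94e-05). In C498+LPS vs LPS its log2 change was -0.06, with a 95% interval from -0.34 to 0.21 (limma adjusted p = 0.777) and from -0.17 to 0.04 when each sample was left out in turn.

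Ccl4, which lies beside Ccl3 on the opposite strand, was at 61.1 and 67.2 TPM in NC, 2195 and 2297 TPM in LPS, 430.1 and 365 TPM in C498, and 3057 and 2974 TPM in C498+LPS. The groups did not overlap, with C498+LPS above LPS. LPS raised it 35-fold and C498 alone 6.2-fold in mean level (log2 changes 5.11 and 2.61, limma adjusted p = 4.59e-07 and 3.31e-05). C498+LPS vs LPS gave 0.43 on the log2 scale (with a standard error of 0.101 and a limma adjusted p of 0.0291, from 0.0264 to 0.207 over the alternatives).

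The neighbours Ccl3 and Ccl4 had nearly the same log2 change with C498 alone and parted under C498 and LPS together. The level of Ccl3 was 3.46 and 2.82 times that of Ccl4 in the NC samples, 2.71 and 2.59 times in LPS, 3.12 and 3.11 times in C498, and 2.01 and 1.78 times in C498+LPS. The ratio was lowest in both C498+LPS samples.

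Ccl5 was high without any stimulus, at 1683 and 2072 TPM in NC and 1902 and 2004 TPM in C498, and reached 8066 and 7948 TPM in LPS and 4959 and 4918 TPM in C498+LPS. NC and C498 overlapped, and C498+LPS lay between these and LPS with no overlap. In LPS vs NC its log2 change was 2.10 (standard error 0.108, limma adjusted p = 2.79e-05) and in C498+LPS vs C498 it was 1.34 (adjusted p = 0.000471). C498 alone gave 0.06, with a 95% interval from -0.19 to 0.32.

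In C498+LPS the mean of Ccl5 was 0.617 of that in LPS, a difference of -3069 TPM between the means (standard error 62.3 TPM). This was the largest difference in TPM of the 9 ligands in that comparison. Its log2 change of -0.70 (limma adjusted p = 0.00639) fell short of 2-fold, and over the alternatives it lay between -0.83 and -0.69 with an adjusted p from 0.00137 to 0.0642. T cells and NK cells also make Ccl5. Of 8 T cell markers 1 had a mean of at least 1 TPM (Lck), and their sum ran from 4.04 to 5.62 TPM without C498 and from 3.01 to 8.36 TPM with it. Of 7 NK cell markers 1 did (Klrk1), and their sum was 1.65 to 1.73 TPM in NC, 5.51 to 5.99 TPM in LPS, 1.56 to 2.25 TPM in C498 and 4.00 to 5.49 TPM in C498+LPS. Most of the NK cell sum with LPS was Klrk1, at 0.74 and 0.41 TPM in NC, 3.91 and 3.85 TPM in LPS, 0.44 and 1.16 TPM in C498, and 3.09 and 3.08 TPM in C498+LPS. Gzmb, at 0.23 and 0.62 TPM in NC and 1.56 and 1.09 TPM in LPS, was the next, while Gzma and Klrb1c were below 0.5 TPM in every sample and had lower means in LPS than in NC. The part of these cells in the level of Ccl5 was not tested.

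**Figure D3:**
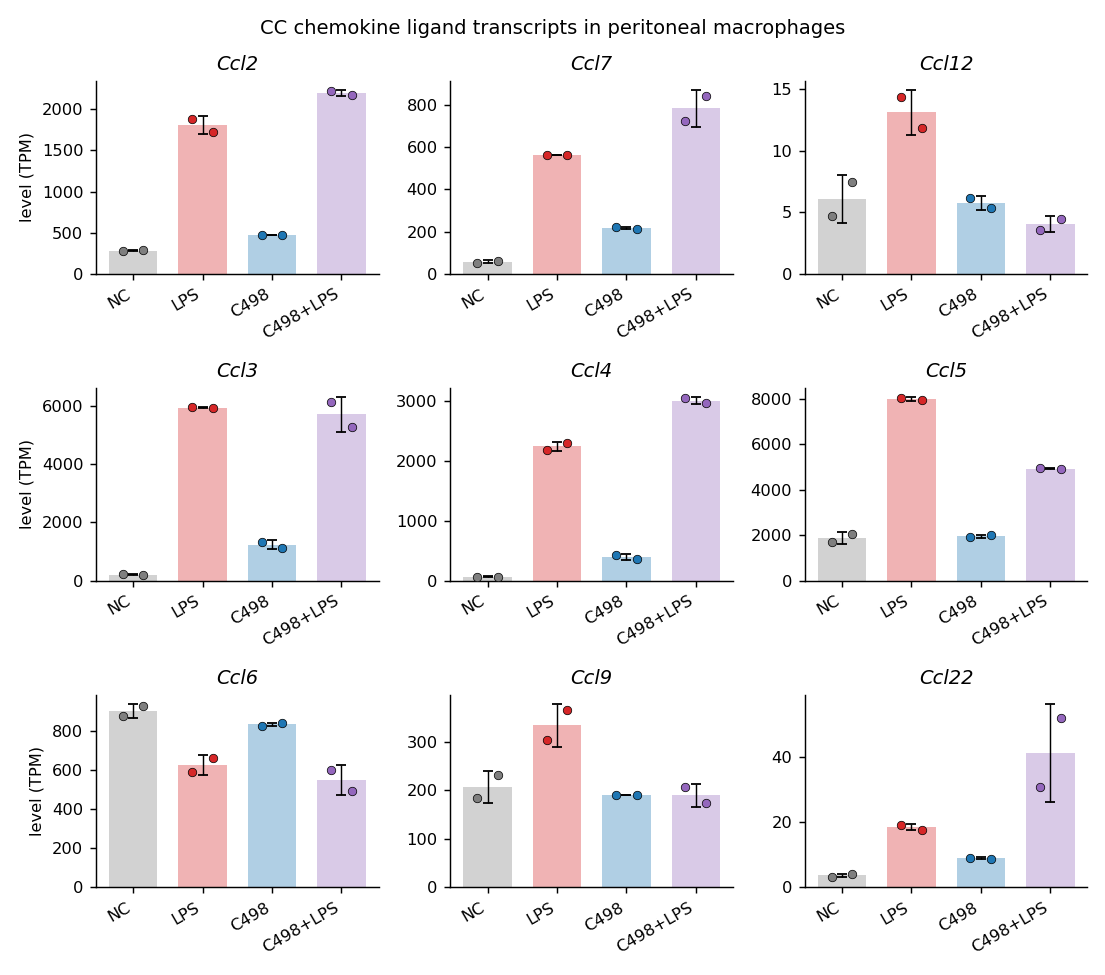
Level in TPM of each ligand in the 4 groups, with bars for the mean, error bars for the SD (n = 2) and points for the samples. Each panel has its own axis from 0. Ccl5 is the ligand with the widest gap in TPM between LPS and C498+LPS, and Ccl2, Ccl4, Ccl7 and Ccl22 are higher in C498+LPS than in LPS.

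Ccl6 and Ccl9 are chemokines of mouse myeloid cells that act on CCR1 and lie side by side on chromosome 11. Ccl6 was at 879 and 929 TPM in NC, 591 and 662 TPM in LPS, 828 and 840 TPM in C498, and 603 and 496 TPM in C498+LPS. The samples with LPS lay below all samples without it, and LPS and C498+LPS overlapped. No change of Ccl6 reached 2-fold: the log2 change was -0.53 in LPS vs NC (limma adjusted p = 0.0121) and -0.61 in C498+LPS vs C498 (adjusted p = 0.0136). Centring the samples on their median gene gave -0.36 and -0.39 with adjusted p of 0.174 and 0.192, the highest over the alternatives, where the lowest were 0.00306 and 0.00381.

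Ccl9 was at 184 and 231 TPM in NC, 303 and 366 TPM in LPS, 190.2 and 191 TPM in C498, and 207 and 173 TPM in C498+LPS. The LPS samples stood above the other 6, which overlapped. In LPS vs NC its log2 change was 0.69 (limma adjusted p = 0.0134, from 0.0105 to 0.0925 over the alternatives), short of 2-fold. After C498 the response to LPS was -0.01, with a 95% interval from -0.36 to 0.34.

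In C498+LPS vs LPS Ccl9 had a log2 change of -0.81 (with a standard error of 0.149 and a limma adjusted p of 0.012, from 0.00955 to 0.0952 over the alternatives), with the C498+LPS mean at 0.569 of the LPS mean. The level of Ccl6 was 4.36 times that of Ccl9 in NC, 4.38 times in C498, 1.87 times in LPS and 2.89 times in C498+LPS.

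Ccl22 binds CCR4 and attracts helper and regulatory T cells, and it is made by macrophages and dendritic cells. It was at 3.26 and 4.05 TPM in NC, 19.1 and 17.8 TPM in LPS, 9.13 and 8.71 TPM in C498, and 30.7 and 52.0 TPM in C498+LPS. The groups did not overlap, and the C498+LPS samples were the highest and the farthest apart. LPS gave log2 changes of 2.07 without C498 (limma adjusted p = 0.00111) and 2.05 with it (adjusted p = 0.00239).

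C498 raised Ccl22 by 1.10 on the log2 scale in C498 vs NC (standard error 0.241, limma adjusted p = 0.0256) and by 1.08 in C498+LPS vs LPS (adjusted p = 0.0243). Both calls were close to the threshold. In C498 vs NC the call was lost without any one of the NC, LPS or C498 samples (log2 change from 0.97 to 1.22), and also with centring (0.97) and with quantile normalization (0.94). It was lost too with no filter on low values (limma adjusted p = 0.0667) and with only the groups compared (0.0728). In C498+LPS vs LPS it was lost without either LPS sample (log2 change 1.13 and 1.03) or either C498 sample (1.08 in both), and without C498+LPS replicate 2 the log2 change was 0.71 (adjusted p = 0.106). Over the alternatives the adjusted p began at 0.0152 in C498 vs NC and ran from 0.0121 to 0.144 in C498+LPS vs LPS. Of 8 dendritic cell markers 3 had a mean of at least 1 TPM, and their sum, which was mostly Itgax and Ccr7, was 48.2 to 62.1 TPM in NC, 60.4 to 63.6 TPM in LPS, 91.0 to 92.2 TPM in C498 and 97.8 to 151.2 TPM in C498+LPS. Itgax was at 44.9 and 43.1 TPM in LPS and 47.7 and 33.8 TPM in C498+LPS, so most of the higher sum there was Ccr7, at 17.2 and 16.2 TPM in LPS and 46.8 and 112 TPM in C498+LPS. C498+LPS replicate 2, the sample with the most Ccl22, was also the highest of the 8 in Ccr7, in the B cell marker Ighm (106 TPM, against 37.2 TPM in replicate 1) and in the mast cell marker Cma1 (6.78 TPM, against 1.77 TPM in replicate 1). Zbtb46, a transcription factor of dendritic cells, was at 0.82 and 0.45 TPM in LPS and 2.20 and 3.41 TPM in C498+LPS (log2 change 1.21, limma adjusted p = 0.0354), and Flt3 was at 0.41 and 0.33 TPM and 0.65 and 1.29 TPM. The other 4 markers, Xcr1, Clec9a, Cd209a and Dpp4, were below 1 TPM in every sample. The part of dendritic cells in the level of Ccl22 was not tested.

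The response to LPS was compared with and without C498 by the interaction of C498 and LPS, the difference between the 2 log2 changes. It was below 0 for all 9 ligands, though that of Ccl22 was above 0 with centring (0.03) and with quantile normalization (0.12). The log2 response was called smaller with C498 for 3 of them (Ccl3, Ccl4 and Ccl7), where 0.394% of all tested genes were, or 0.418% with no fold change threshold. None was called with a larger response by limma (background 0.0738%), and none was larger at an unadjusted p under 0.05. Ccl3 had a difference of -2.68 (standard error 0.164, adjusted p = 0.0031), Ccl4 of -2.18 (standard error 0.142, adjusted p = 0.0031) and Ccl7 of -1.44 (standard error 0.162, adjusted p = 0.0214).

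These 3 genes were also raised by C498 alone, so that their responses to LPS with and without C498 started from different levels. The calls of Ccl3 and Ccl4 held under all 15 alternatives, with adjusted p of at most 0.0441. The call of Ccl7 was lost under 8 of 15 alternatives: without LPS replicate 1 or 2, C498 replicate 1 or 2 or C498+LPS replicate 1 (log2 difference from -1.47 to -1.33, adjusted p from 0.0741 to 0.14), with centring (adjusted p = 0.104), with no filter on low values (0.0724) and with no variance trend (0.0835). Its adjusted p over the alternatives began at 0.0138.

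For the other ligands the difference of the responses did not pass the threshold. It was -0.46 for Ccl2 (95% interval -0.71 to -0.21, limma adjusted p = 0.17), -0.76 for Ccl5 (-1.12 to -0.40, adjusted p = 0.112), -0.69 for Ccl9 (-1.19 to -0.20, adjusted p = 0.3) and -1.45 for Ccl12 (-2.24 to -0.66, adjusted p = 0.164). Ccl6 and Ccl22 had intervals around 0, from -0.45 to 0.29 and from -0.82 to 0.78.

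**Figure D4:**
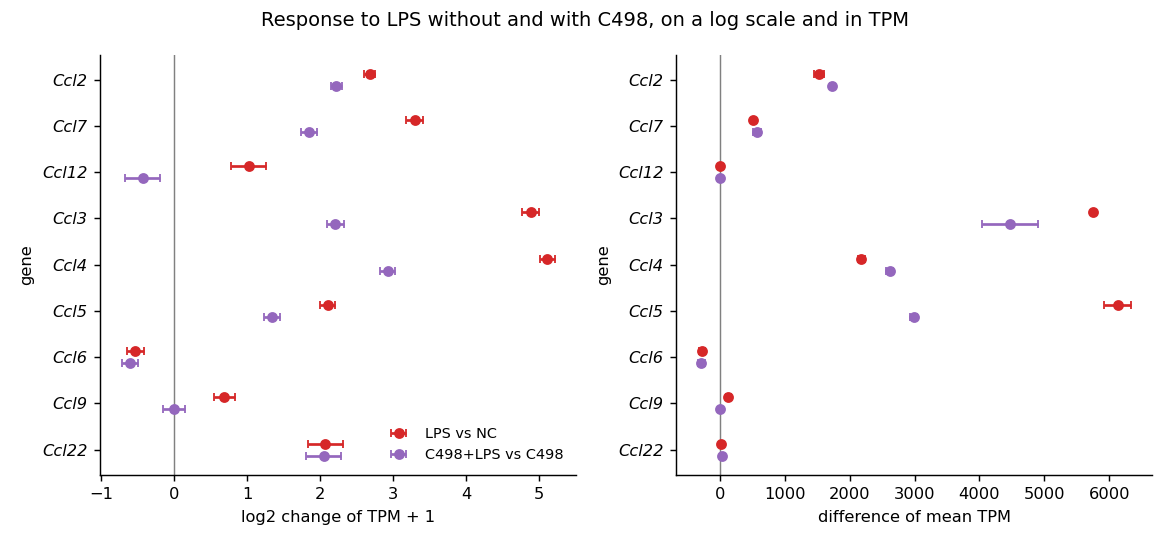
Response of each ligand to LPS without C498 (LPS vs NC, red) and with C498 (C498+LPS vs C498, purple), as log2 change of TPM + 1 with its standard error (left) and as difference of the group means in TPM with its standard error (right). For Ccl4 the log2 response is smaller with C498 while the gain in TPM is larger.

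The same responses counted in TPM gave another picture for some genes. The gain of Ccl4 with LPS was 2182 TPM without C498 and 2618 TPM with it, a difference of 436 TPM (standard error 73.5 TPM). For Ccl2 the gains were 1525 and 1729 TPM (difference 204 TPM, standard error 81.7 TPM), and for Ccl7 506 and 567 TPM (difference 61.2 TPM, standard error 61.5 TPM). The sign of the difference in these 3 genes therefore depended on the scale, smaller with C498 as a log2 change and larger in TPM, though for Ccl7 the gap in TPM was no larger than its standard error.

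For Ccl3 and Ccl5 both scales gave a smaller response with C498. The gain of Ccl5 was 6130 TPM without and 2985 TPM with C498, 0.487 of it, and that of Ccl3 was 5746 and 4475 TPM, 0.779 of it. Ccl22 gained 14.8 and 32.5 TPM, a difference of 17.7 TPM (standard error 10.7 TPM). These differences of TPM were given no test.

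Of 14 other CC ligands looked up, 13 had a row in the table and 4 a mean of at least 1 TPM: Ccl8, Ccl24, Ccl25 and Ccl27a. None of the 4 was called by limma in any comparison, and none differed at an unadjusted p under 0.05. Ccl8, a monocyte attractant from the same stretch of chromosome 11 as Ccl12, was at 4.93 and 14.1 TPM in NC, 6.19 and 6.28 TPM in LPS, 8.28 and 7.71 TPM in C498, and 4.30 and 8.89 TPM in C498+LPS, with all groups but LPS and C498 overlapping. Of the 13, 4 were listed at 0 in all samples.

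Of the receptors of these ligands, Ccr1, Ccr2, Ccr4 and the receptor-like Ccrl2 are described. Ccr1, the receptor of Ccl3, Ccl5, Ccl6 and Ccl9, was at 101.4 and 80.9 TPM in NC, 33.7 and 31.9 TPM in LPS, 83.9 and 76.2 TPM in C498 and 51.0 and 47.3 TPM in C498+LPS, and it fell by 1.44 on the log2 scale in LPS vs NC (limma adjusted p = 0.00036). The receptors of Ccl2 and of Ccl22 were close to 0, with Ccr2 at no more than 1.06 TPM and Ccr4 at no more than 0.17 TPM in any sample.

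Ccrl2, a receptor-like protein that binds the chemoattractant chemerin without signaling, was at 78.2 and 67 TPM in NC, 1090.5 and 963 TPM in LPS, 315 and 281 TPM in C498, and 1627 and 1565 TPM in C498+LPS. The groups did not overlap and stood in the order of those of Ccl2, Ccl4, Ccl7 and Ccl22. Its log2 change was 3.80 for LPS vs NC, 2.42 for C498+LPS vs C498 and 2.02 for C498 vs NC (limma adjusted p = 2.35e-06, 4.95e-05 and 0.000131).

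Of 24 genes that carry or dampen the signal of chemokine receptors, 1 was called upregulated and 3 downregulated in C498+LPS vs LPS, where 5.39% and 2.18% of all tested genes were, so the count upregulated was near the background. Rgs1, Rgs2, Grk2, Arrb1 and Arrb2 are among those that dampen it. Rgs2, which shortens G protein signals, was at 1.54 and 2.43 TPM in LPS and 15.9 and 18.8 TPM in C498+LPS (log2 change 2.63, limma adjusted p = 0.000653). The Src-family kinase Fgr fell by 1.34 on the log2 scale, and Pik3cg, the PI3-kinase that G protein-coupled receptors activate, fell by 1.50 (limma adjusted p = 0.00215 and 0.0121). The median of the 24 genes was -0.38, beside 0.01 over all tested genes.

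Of 29 regulators of chemokine transcription or mRNA stability, a list that also holds the NFκB inhibitors Nfkbia and Tnfaip3 and the mRNA-stabilizing Elavl1, 10 were upregulated (background 5.55%) and 2 downregulated (6.68%) in LPS vs NC, the latter near the background. With C498 present, LPS gave 8 upregulated (2.52%) and 3 downregulated (3.13%). In C498 vs NC 11 were upregulated (5.64%) and in C498+LPS vs LPS 8 were (5.39%). None was called downregulated by limma in these comparisons of C498 with no C498 (background 1.36% and 2.18%), where 2 and 5 were lower at an unadjusted p under 0.05.

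The genes of this list with the largest changes in C498+LPS vs LPS were immediate-early transcription factors and a pair of mRNA decay factors. Egr1 was at 4.18 and 4.68 TPM in LPS and 51.6 and 54.8 TPM in C498+LPS (log2 change 3.32, limma adjusted p = 7.01e-05), and Fos, a subunit of AP-1, was at 1.89 and 2.27 TPM and 18.1 and 20.5 TPM (log2 change 2.72, limma adjusted p = 0.00018). Fosb was listed at 0 in both LPS samples and at 6.38 and 8.17 TPM in C498+LPS. Jun, the partner of Fos in AP-1, had a log2 change of 1.64 (limma adjusted p = 0.000621). It was at 27.6 and 26.2 TPM in LPS and 85.7 and 86.6 TPM in C498+LPS. In NC, Jun was at 94.7 and 77.7 TPM and Fos at 15.9 and 14.3 TPM. Fosb was at 0.06 and 0 TPM there and Egr1 at 1.86 and 1.82 TPM. In C498, Jun was at 320 and 275 TPM and Fos at 76.3 and 80.3 TPM. Fosb was at 25.5 and 26.4 TPM in C498, and Egr1 at 55.5 and 49.65 TPM. Jun, Fos and Fosb were called downregulated by limma in C498+LPS vs C498 (log2 changes -1.77, -1.97 and -1.71).

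Zfp36 encodes tristetraprolin, which binds AU-rich elements and speeds the decay of cytokine mRNAs. It was at 35.3 and 31.1 TPM in NC, 66.9 and 61.0 TPM in LPS, 178 and 162 TPM in C498, and 234 and 239 TPM in C498+LPS. The groups did not overlap, and they stood in the order NC, LPS, C498 and C498+LPS, with both groups given C498 above both without it. In C498+LPS vs LPS its log2 change was 1.87 (limma adjusted p = 0.000279), and that of the related Zfp36l1 was 1.79 (limma adjusted p = 0.00427).

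The ligands differed in which other genes their levels resembled. Likeness was measured as Pearson's r of log2(TPM + 1) over the 8 samples against 6981 genes with a mean of at least 10 TPM, the 9 ligands left out, and it is given as a description with no p, since the 8 samples form 4 groups of 2 and many genes share their steps. Nearest to Ccl2 among these were Nfkb1, the NFκB subunit p50 and its precursor (r = 0.997), Stip1 and Rnd3. Nearest to Ccl3 were the interleukin-1 receptor antagonist Il1rn (r = 0.997), Tnfsf9 and Csf3, and nearest to Ccl4 the neutrophil attractant Cxcl1 (r = 0.997), Ccrl2 and Il1rn.

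Ccl7 was nearest to Cd14, the LPS co-receptor (r = 0.998), Cxcl1 and Hcar2. Cxcl1 had means of 12.4 TPM in NC, 662 TPM in LPS, 122.5 TPM in C498 and 1307 TPM in C498+LPS, the order of Ccl4 and Ccl7. Ccl5 was nearest to Ttc39c (r = 0.995), Ehd1 and the interferon-inducible GTPase Ifi47, and Ehd1 had means of 120.1, 616, 144 and 344 TPM in the same order of groups.

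Ccl6 was nearest to the lysosomal protease Ctsd (r = 0.994), Trabd and Tcn2. Ccl9 was nearest to Vrk2 (r = 0.975), Psmd8 and Uba7, and Ccl12 to Parp10 (r = 0.956), Tm2d1 and Psme1. Ccl22 was nearest to Srgn (r = 0.985), the core protein of secretory granule proteoglycans, and to Txnl1 and Eif2s2. Among the ligands themselves r was 0.995 for Ccl3 with Ccl4, 0.996 for Ccl4 with Ccl7, 0.961 for Ccl2 with Ccl7, 0.874 for Ccl9 with Ccl12 and -0.95 for Ccl2 with Ccl6.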

How the data were processed

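RNA of 8 samples, 2 for each of NC, LPS, C498 and C498+LPS, was sequenced on an Illumina NovaSeq instrument. The authors deposited 1 table of gene-level TPM values for 55801 genes, rounded to 2 decimals, each sample summing to between 999999 and 1000001. The submitters' processing notes name fastp, HISAT2, StringTie and RSEM, with no version, and the build and annotation are not given in the sources used here. The table also holds the authors' group means, which were not used, and no values of other samples. TPM values are not counts, so the depth per sample is unknown, no counting interval could be given, and limma on the log scale took the place of a count test. Between 17528 and 18975 genes were above 0 in a sample.

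The test was limma (3.58.1, in R 4.3.3) on log2(TPM + 1), over the 12189 genes with a mean of at least 1 TPM, with a mean for each of the 4 groups, 1 spread from all 8 samples and a trend of variance with level. The fit was also run on simulated data, and the outcome is not reported here. A call needed at least a 2-fold change and an adjusted p (Benjamini-Hochberg, over all tested genes) of at most 0.05, as in the study. Summaries and plots were made with Python 3.11.15, numpy 2.4.6, pandas 2.3.3 and matplotlib 3.10.9. Positions came from GENCODE M21 and promoters from RefSeq, both on GRCm38, matched by symbol.

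The members and the lists of receptors, signaling genes, regulators and cell markers were chosen with earlier results of these data known. Named were all 9 members, other ligands and receptors with a mean of at least 1 TPM, Ccr2 and Ccr4 (added after their values were seen), at most 6 genes per list called in C498+LPS vs LPS by size of change, and the 3 genes most like each member. Of the markers, the most abundant gene of a list was named by this rule, and the other markers, with Cxcl1 and Ehd1 levels, were picked after their values were seen. Some genes that this rule names are not reported here. Alternatives were another pseudocount (0.1), no filter or a minimum mean of 5 TPM, median centring, quantile normalization, only the groups compared, no variance trend, no fold threshold, a replicate block, and each sample left out in turn.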

Additional observations from a re-analysis of the deposited data

Results flagged for a closer look

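Only the 9 ligands and Ccrl2 were looked at here. For 4 of them the log2 response to LPS differed between cells with and without C498, by limma's test of the interaction. Over all tested genes 0.0738% had an interaction above 0 and 0.418% below 0 at an adjusted p of at most 0.05. The response with C498 minus that without was -2.68 for Ccl3, -2.18 for Ccl4, -1.44 for Ccl7 and -1.39 for the receptor-like gene Ccrl2, with adjusted p of 0.0031, 0.0031, 0.0214 and 0.0214. That of Ccl7 lost its call under 8 of 15 alternatives. The 4 genes were also upregulated in C498 vs NC, by 2.62, 2.61, 1.92 and 2.02 on the log2 scale. Counted in TPM, Ccl3 gained less from LPS with C498 (5746 TPM without it, 4475 TPM with it). Ccl4 gained more (2182 and 2618 TPM). Ccl7 gained 506 and 567 TPM, a gap of 61.2 TPM that was no larger than its standard error of 61.5 TPM. The means of Ccrl2 were 72.6 TPM in NC, 1027 TPM in LPS, 298 TPM in C498 and 1596 TPM in C498+LPS. With 2 samples in a group, no single sample could be checked for lying apart from its group.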

How the results depend on the processing

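The ligands had 711 values recomputed under the alternatives, that with no fold threshold left out. Of these, 664 kept their direction and their side of the call, 31 lost the call and 16 changed sign, the last all of changes that were not called. With no fold threshold, 1 ligand was lower with LPS whether C498 was absent (LPS vs NC) or present (C498+LPS vs C498), and 4 were higher and 3 lower in C498+LPS vs LPS. With no filter on low values, and with only the groups compared, 0 were upregulated in C498+LPS vs LPS (limma, with 4 higher at an unadjusted p under 0.05 in the fit of all groups). Leaving out each sample in turn gave 0 to 1 upregulated and 0 to 1 downregulated ligands in that comparison, 6 to 7 upregulated in LPS vs NC, 3 to 4 in C498 vs NC, and 2 to 3 smaller responses with C498. Centring turned the log2 change of Ccl9 in C498+LPS vs C498 to 0.21, that of Ccl5 in C498 vs NC to -0.0577 and the interaction of Ccl22 to 0.0258, and quantile normalization turned the last to 0.12. Leaving out each sample gave log2 changes of -0.13 to 0.12 for Ccl9 in C498+LPS vs C498, and -0.17 to 0.0446 for Ccl3 in C498+LPS vs LPS. For C498 vs NC it gave -0.0856 to 0.21 for Ccl5, -0.28 to 0.0482 for Ccl9 and -0.33 to 0.25 for Ccl12. It gave interactions of -0.22 to 0.0628 for Ccl6 and -0.39 to 0.35 for Ccl22. The cause of these changes was not tested. Over all tested genes, the counts up and down in C498+LPS vs LPS went from 657 and 266 to 1107 and 938 with no fold threshold, 382 and 212 at a mean of at least 5 TPM and 579 and 335 with centring. For C498 vs NC they went from 687 and 166 to 1132 and 754, with only the groups compared to 306 and 73 and with centring to 565 and 269. In LPS vs NC 677 and 814 became 1200 and 2409 with no fold threshold and 767 and 510 with quantile normalization, and in C498+LPS vs C498 307 and 381 became 550 and 1430, and 410 and 262. The interaction counts of 9 and 48 became 3 and 15 with no filter and 3 and 9 with no variance trend. Leaving out each sample moved these counts, and with them the background shares, to 300 to 677 up and 141 to 279 down in C498+LPS vs LPS (lowest without LPS replicate 2 and without C498+LPS replicate 2), 274 to 1186 and 71 to 215 in C498 vs NC (up lowest without C498 replicate 1 and highest without NC replicate 1), 181 to 319 and 183 to 401 in C498+LPS vs C498 (lowest without C498 replicate 2 and without C498 replicate 1), 514 to 931 and 628 to 1078 in LPS vs NC, and 0 to 28 and 9 to 64 for the interaction (lowest up without LPS replicate 1 or C498 replicate 1, lowest down without LPS replicate 1). With the replicate number as a block the ligand counts were the same (7 up and 0 down for LPS vs NC, 6 and 0 for C498+LPS vs C498, 1 and 1 for C498+LPS vs LPS, 4 and 0 for C498 vs NC, and 0 and 3 for the interaction). Differences of replicate 1 and replicate 2 correlated by 0.0397 to 0.168 between the 6 pairs of groups, not all above 0.1, so the numbers were not taken to pair the samples. Depth is unknown, and Ccl12 and Ccl22, the lowest of the 9 ligands, held most of the lost calls.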
